A study of Mus musculus with 26 samples.

Results

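LT-HSC-derived lines grown with doxycycline (dox) and sampled at 72 h were compared with freshly sorted long-term hematopoietic stem cells (LT-HSC), the cell type from which the lines had been made. The comparison used 7 of the 26 arrays of the study, chosen by their sample labels: 3 arrays of immortalized lines with dox at 72 h (lines B6-1, B6-2 and B6-3) and 4 arrays of sorted LT-HSC. All cells were from C57BL/6 mice. The lines were harvested from liquid medium, whereas the LT-HSC were wild-type cells sorted by flow cytometry from bone marrow. In this series doxycycline is known to control expression of MLL-AF9, a leukaemia-causing fusion of the genes KMT2A (MLL) and MLLT3 (AF9). The labels do not state the transgene's promoter, its alleles, the surface markers used for sorting, or the event from which the hours count. Culture, immortalization, dox itself and the fusion differed together between the groups, and their parts in any difference cannot be told apart. Further groups from the same study served as references, both for levels and in additional tests reported below. They were the same lines without dox at 72 h (n = 3) and sorted granulocyte macrophage progenitors (GMP, n = 4). Lines made from GMP, sampled at 48 h under dox (n = 4), were the remaining reference. The LT-HSC-derived lines harvested at 48 h, and GMP-derived lines not given dox, entered only the fit that estimated the spread of each gene.

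LT-HSC sit at the top of blood formation. They divide rarely, rely on a small set of transcription factors (among them Mecom, Meis1, Hlf and Erg) and receive signals from the niche through receptors such as Kit and Tek. GMP are their myeloid descendants, which divide fast and start to make the enzymes of neutrophil granules. MLL fusions recruit transcription elongation factors to their target genes, of which the Hoxa cluster and Meis1 are the best known, and keep progenitor cells growing.

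The values are log2 signals of probe sets, 1 probe set per gene, so that a difference of 1 is a 2-fold change. Over all 34760 probe sets, array medians lay between 5.81 and 5.91, and the median of all probe set values was 5.86. Over the same probe sets arrays of the lines correlated with each other at 0.988 to 0.989. Sorted LT-HSC arrays correlated with each other at 0.982 to 0.985, and arrays of the lines with sorted LT-HSC arrays at 0.946 to 0.957. The deposited table holds no detection calls, so a level below the median is described as dim and not as absent. Since the samples are bulk RNA, fewer cells of a type and less RNA per cell cannot be told apart. The labels call the sorted replicates biological but name no animals, so the p-values cover the spread among the arrays of this study alone. That spread was estimated for each gene over all 26 arrays, not only the 7 compared. With only the compared groups in the fit 5866 genes were called, against 6768 as reported.

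Of 19937 genes, 6768 (33.9%) differed between the lines with dox and sorted LT-HSC at an adjusted p under 0.05 in limma's test over all genes. Of these, 3379 were higher in the lines (16.9% of all genes) and 3389 lower (17.0%). When each array was instead centred on its median, the split was 3935 higher and 2529 lower, so that 60.9% of calls were higher in place of 49.9%. Differences of at least 2-fold were called for 649 genes higher in the lines (3.26%) and 533 lower (2.67%), and 163 and 148 genes passed 4-fold. The median difference over all genes was -0.03, and list medians below are to be read against it.

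The 12 largest increases included several genes of myeloid progenitors and their progeny. Ms4a3, a membrane protein of granulocyte and monocyte progenitors, had signals of 10.96, 10.79 and 11.01 in lines B6-2, B6-3 and B6-1, against 5.40, 5.67, 5.13 and 4.39 in sorted LT-HSC. Ctsg, which encodes the granule protease cathepsin G, had 11.37, 11.22 and 11.31 in the lines, against 6.52, 5.52, 5.58 and 5.51 in sorted LT-HSC. For both genes every line array lay more than 4 log2 units above every sorted array. Their fitted differences were 5.78 ± 0.18 (SE, 54.8-fold, limma adjusted p = 1.52e-17) and 5.52 ± 0.17 (45.8-fold, adjusted p = 1.52e-17). Ccr2, the chemokine receptor of monocytes, had 10.48, 10.37 and 9.94 in the lines, against 5.32, 5.85, 4.85 and 4.76 in sorted LT-HSC (5.07 ± 0.25, 33.6-fold). The others were Atp8b4 (5.45), Gpr141 (5.25), the lectin receptor Clec12a (5.21), the chemokine Ccl6 (4.67), the basophil protease Mcpt8 (4.54), the actin-severing protein Scin (4.47), the prostaglandin-degrading enzyme Hpgd (4.47), Wfdc17 (4.39) and the secreted lectin Chil3 (4.37), given as log2 differences. Hpgd varied among the lines, with 10.61, 9.97 and 8.25 in B6-2, B6-3 and B6-1.

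The 12 largest decreases included stem cell, megakaryocyte, endothelial and immediate early genes. Bex1 had signals of 3.33, 2.68 and 2.88 in lines B6-2, B6-3 and B6-1, against 9.68, 9.31, 9.70 and 8.83 in sorted LT-HSC. It showed the largest decrease of the genes eligible for naming, at -6.42 ± 0.30 (85.4-fold lower, limma adjusted p = 2.76e-14). Pf4, the platelet chemokine, had 6.04, 4.92 and 6.29 in the lines, against 10.68, 10.70, 10.09 and 10.52 in sorted LT-HSC (-4.74 ± 0.45, 26.7-fold lower). Adgrl4 (-5.44), an adhesion receptor of endothelium, the signalling regulator Rgs1 (-4.99), Myct1 (-4.68), the platelet and endothelial protein Mmrn1 (-4.65), Fosb (-4.53), Nr4a2 (-4.26), Tceal8 (-4.13), the endothelial sialomucin Emcn (-4.01), the kinase Prkg1 (-4.01) and Nr4a1 (-3.91) followed. Tceal8 was the least uniform, with 6.39 in line B6-2 and 4.34 and 4.39 in lines B6-3 and B6-1, against 8.99 to 9.30 in sorted LT-HSC.

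**Figure D1:**
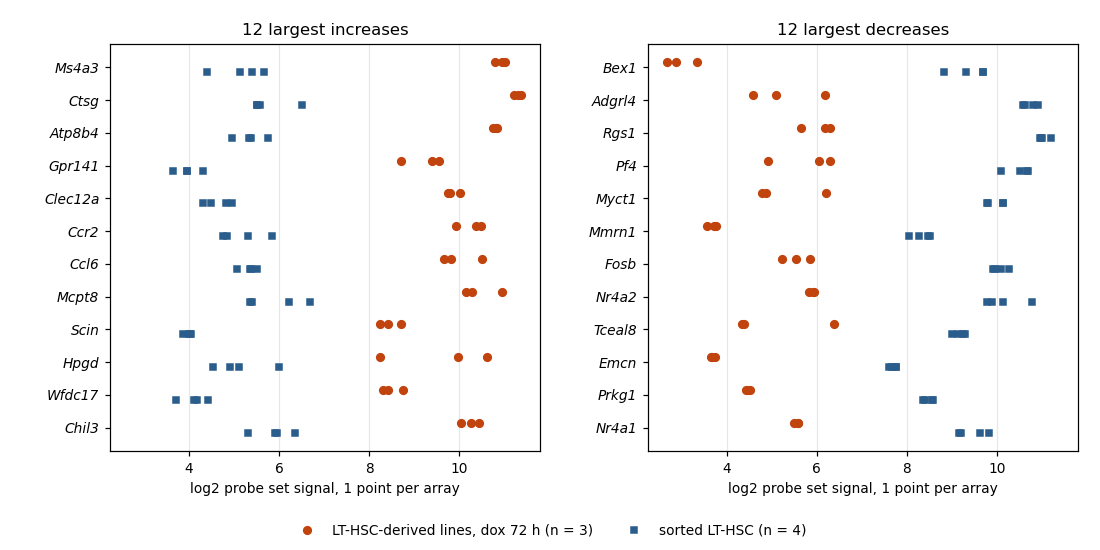
Log2 probe set signals (horizontal axes) of the 12 largest increases (left) and decreases (right), with 1 orange circle per array of the lines under dox at 72 h (n = 3) and 1 blue square per array of sorted LT-HSC (n = 4). The groups do not overlap for any of these genes, as their choice required, and Hpgd and Tceal8 have the widest spread among the lines.

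**Figure D2:**
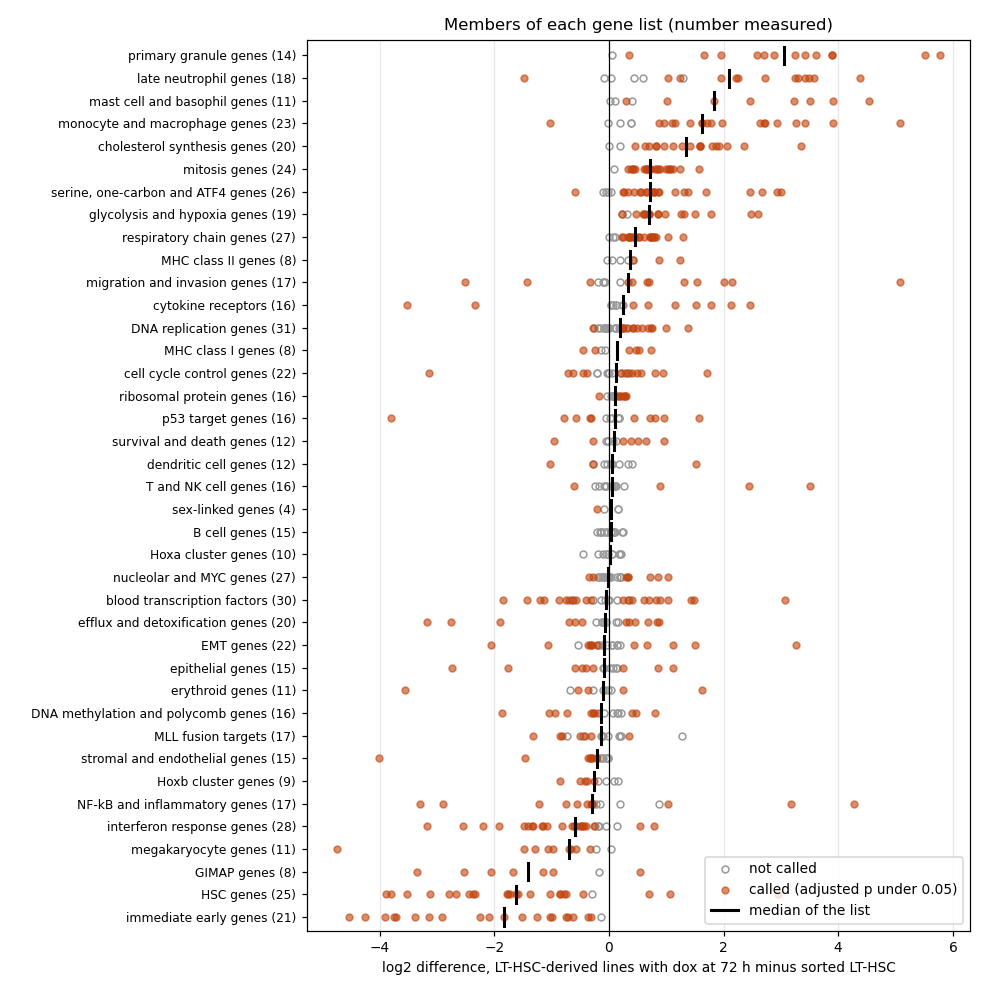
Log2 differences (horizontal axis, lines with dox at 72 h minus sorted LT-HSC) of every measured member of the gene lists, with 1 circle per gene, filled where called, and a black bar at the list's median. Primary granule genes have the highest median, 3.06, and immediate early genes the lowest, -1.83.

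HSC genes were lower in the lines as a group. Of 25 measured, 21 were called lower and 3 higher, with a median of -1.61. Hlf, a transcription factor that marks stem cells, had signals of 5.84, 5.75 and 5.68 in lines B6-2, B6-3 and B6-1, against 9.76, 9.77, 9.72 and 9.32 in sorted LT-HSC (-3.88 ± 0.10, limma adjusted p = 6.31e-19). Tek, the receptor for angiopoietin, had 3.99, 4.23 and 4.14 in the lines, against 7.09, 7.76, 7.88 and 7.84 in sorted LT-HSC (-3.52 ± 0.13). In both cases the lowest sorted array was still far above the highest line array. The calcium channel gene Trpc6 fell by 3.80. Kit, the receptor for stem cell factor, fell by 2.33, to a mean of 8.05 ± 0.17 in the lines (SD, n = 3) against 10.38 ± 0.04 in sorted LT-HSC (SD, n = 4), so it stayed well above the array median. The members that rose, named after their values were seen, were Thy1 (2.95), a surface glycoprotein low on mouse LT-HSC, Cd34 (1.06), which marks short-term stem cells and progenitors in mice, and Socs2 (0.70), a brake on cytokine signals. The member with no call was Mycn. Efflux and detoxification genes were split, with 6 of 20 called higher and 6 lower. The pump Abcg2 fell by 3.17, the retinaldehyde dehydrogenase Aldh1a1 by 2.76 and the glutathione transferase Gstm5 by 1.89.

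Mecom, Meis1, Erg and Zeb1 were lower in the lines than in sorted LT-HSC, yet higher than in the same lines without dox. Mecom, a transcription factor required by LT-HSC, had 7.16, 7.27 and 7.88 in lines B6-2, B6-3 and B6-1 with dox, against 9.02, 9.04, 9.20 and 8.95 in sorted LT-HSC (-1.61 ± 0.22, limma adjusted p = 2.91e-06). Its other probe set differed by -0.76. The mean of Mecom was 4.79 in the lines without dox and 4.55 in sorted GMP. Meis1, a homeodomain partner of Hoxa9, had 9.38, 9.20 and 9.58 in the lines, against 10.61, 10.58, 10.83 and 10.82 in sorted LT-HSC (-1.32 ± 0.17), with means of 7.78 without dox and 7.02 in sorted GMP. Lines with dox thus lay between the lines without dox and sorted LT-HSC for both genes, with no overlap of arrays on either side. Erg, an ETS factor of stem cells and endothelium, averaged 8.06 ± 0.13 in the lines with dox, against 9.26 ± 0.10 in sorted LT-HSC (-1.20 ± 0.15 SE). Zeb1, a repressor linked to epithelial-mesenchymal transition (EMT), averaged 7.38 ± 0.23 in the lines with dox, against 8.43 ± 0.11 in sorted LT-HSC (-1.06 ± 0.14 SE).

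Hoxa9, the homeobox gene most closely tied to MLL fusions, had 7.38, 7.40 and 7.41 in lines B6-2, B6-3 and B6-1, against 7.21, 7.19, 7.17 and 7.27 in sorted LT-HSC. All line arrays lay above all sorted arrays, but by little, and the difference of 0.19 ± 0.09 was not called (limma adjusted p = 0.106). With median centring it was 0.25 and called, with an adjusted p of 0.0311. Its mean was 6.55 in the lines without dox and 5.89 in sorted GMP. None of the 10 measured Hoxa genes was called by limma in either direction, with differences between -0.45 and 0.22, and 3 passed an unadjusted p under 0.05 (2 higher and 1 lower). With median centring 2 of them were called higher, and with quantile normalization 1 was called lower. Of the 9 Hoxb genes 5 were called lower, led by Hoxb5 (-0.85) and Hoxb4 (-0.50), both tied to stem cell self-renewal, and Hoxb6 (-0.41). None of them was lower by 2-fold. Only 3 of the 9 had a mean above 5.86 in the lines and 3 in sorted LT-HSC, so most of this list was dim. Among 17 MLL fusion targets 6 were called lower, 10 were not called and 1, the cell cycle kinase Cdk6 (named after its value was seen), was higher at 0.35. The highest difference in this list, 1.28, belonged to a member without a call. Besides Meis1 the largest decreases were Eya1 (-0.85), a phosphatase and transcriptional cofactor, and the RNA-binding protein Cpeb2 (-0.81). Eya1 was not called when line B6-3, line B6-1 or sorted replicate 3 was left out, with adjusted p between 0.0563 and 0.104.

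Both mouse genes that correspond to the parts of the fusion were lower in the lines. Mllt3 had 8.11, 8.01 and 8.04 in lines B6-2, B6-3 and B6-1, against 10.45, 10.20, 10.47 and 10.31 in sorted LT-HSC (-2.30 ± 0.12, limma adjusted p = 9.38e-14). Kmt2a had 8.81, 8.88 and 9.00 in the lines, against 10.10, 9.94, 10.09 and 10.10 in sorted LT-HSC (-1.16 ± 0.08). Which part of these genes the probe sets cover, and whether they can detect the fusion, was not stated, so the values do not check its expression. Hprt, which encodes a purine salvage enzyme, had 10.80, 10.61 and 10.64 in the lines with dox, against 9.25, 9.25, 9.84 and 9.29 in sorted LT-HSC (1.28 ± 0.16). In the lines without dox it averaged 7.15, below both groups.

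**Figure D3:**
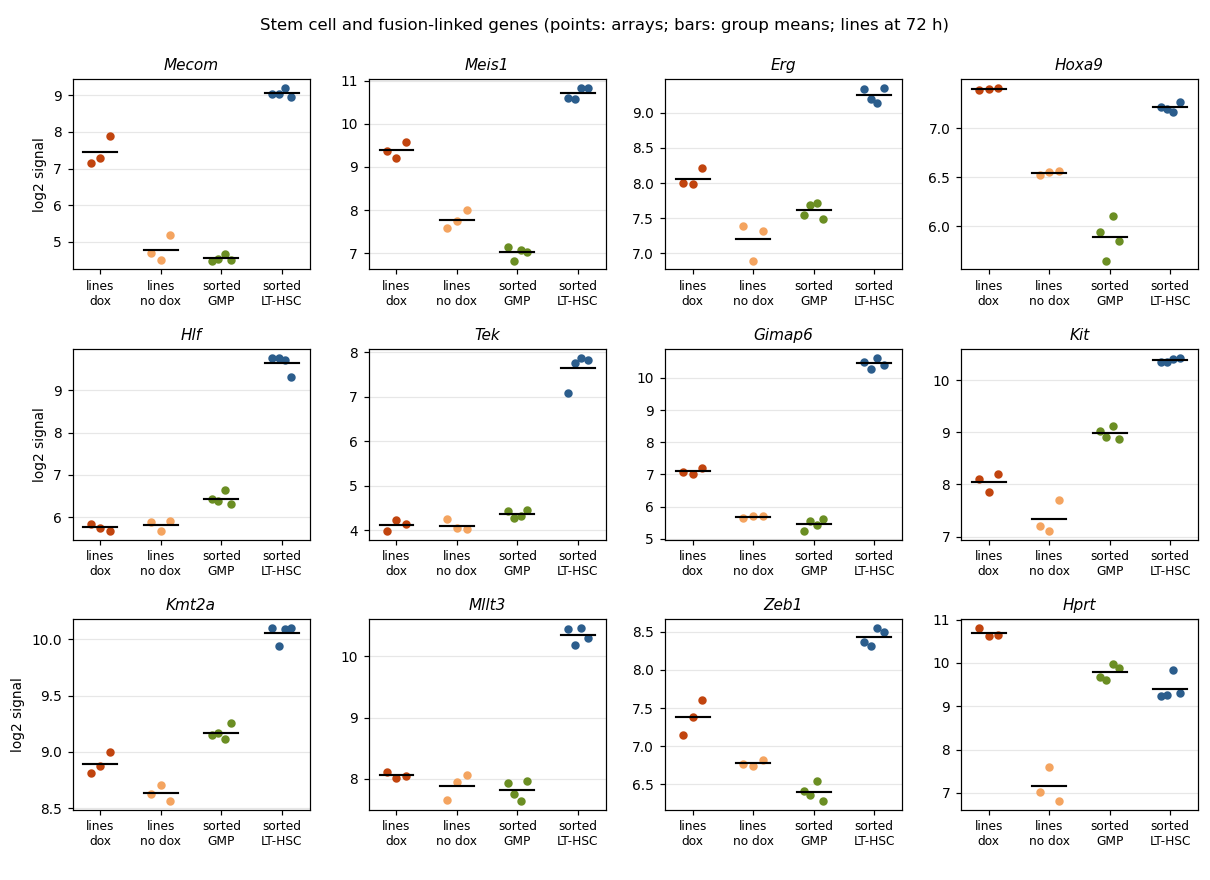
Log2 probe set signals (vertical axes) of 12 stem cell and fusion-linked genes in LT-HSC-derived lines with dox and without dox at 72 h, sorted GMP and sorted LT-HSC, with points for arrays and bars for group means. Mecom and Meis1 have means of 7.44 and 9.39 in lines with dox and 9.05 and 10.71 in sorted LT-HSC, while Hlf and Tek in the lines stay near their levels without dox.

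Other transcription factors of blood were divided evenly: of 30 measured, 11 were called higher and 11 lower. Id2, an inhibitor of bHLH factors, rose most, with 8.06, 8.18 and 7.71 in lines B6-2, B6-3 and B6-1, against 5.17, 4.97, 5.01 and 4.49 in sorted LT-HSC (3.07 ± 0.36, limma adjusted p = 2.57e-07). Cebpa, the factor that starts granulocyte differentiation, rose by 1.48 ± 0.16. Bcl11a, needed for lymphoid development, fell by 1.84 ± 0.18. Among chromatin genes the cytosine oxidase Tet1 fell by 1.87 and the DNA methyltransferases Dnmt3b and Dnmt3a by 1.05 and 0.94. Over the list, 8 of 16 DNA methylation and polycomb genes were called lower and 3 higher. With median centring 4 were lower and 5 higher, so no direction of this list is given. GIMAP genes, a cluster of GTPases known mostly from lymphocytes, were lower in 6 of 8 cases and higher in 1, with a median of -1.41. Gimap6 fell to a mean of 7.10 in the lines, against 10.45 in sorted LT-HSC (-3.35 ± 0.12), and averaged 5.69 in lines without dox. Gimap5 (-2.52) and Gimap1 (-2.06) fell too. Gimap5 had 4.02, 4.03 and 4.43 in the lines, against 5.93, 5.49, 7.56 and 7.74 in sorted LT-HSC, where replicates 3 and 4 were the higher ones.

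The primary granule list holds genes for granule proteins made by promyelocytes and for the membrane protein Ms4a3. Its genes rose in 13 of 14 cases with a median of 3.06, and 12 of them by at least 2-fold. Beside Ms4a3 and Ctsg, neutrophil elastase (Elane) had 9.73, 9.67 and 9.51 in lines B6-2, B6-3 and B6-1, against 5.94, 5.53, 6.15 and 5.36 in sorted LT-HSC (3.89 ± 0.16, limma adjusted p = 2.62e-15). Averaged over the list's probe sets, line arrays lay at 9.82 to 9.98 and sorted LT-HSC arrays at 6.78 to 7.08. The member with no call was Srgn, the granule proteoglycan.

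Late neutrophil genes rose in 12 of 18 cases, all by at least 2-fold, and 1 fell, with a median of 2.09. Chil3 had 10.05, 10.44 and 10.27 in lines B6-2, B6-3 and B6-1, against 5.95, 5.90, 6.35 and 5.31 in sorted LT-HSC (4.37 ± 0.33). The collagenase gene Mmp8 had 9.58, 9.40 and 8.80 in the lines, against 5.27, 5.68, 6.56 and 5.25 in sorted LT-HSC (3.57 ± 0.45). S100a8, a calcium-binding protein abundant in neutrophils, had 11.58, 11.64 and 11.13 in the lines, against a wide range of 8.03, 8.29, 9.16 and 6.37 in sorted LT-HSC (3.48 ± 0.38). The gene that fell, named after its value was seen, was Retnlg (-1.48), a secreted protein of mature neutrophils. Camp, Ltf, Padi4, Cd177 and Mmp9, most of them products of late granules, had no call.

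Monocyte and macrophage genes rose in 18 of 23 cases with a median of 1.62, and 1 fell. Beside Ccr2, the coagulation factor gene F13a1 had 9.10, 9.22 and 9.36 in lines B6-2, B6-3 and B6-1, against 5.27, 5.73, 5.09 and 5.16 in sorted LT-HSC (3.91 ± 0.30, limma adjusted p = 1.36e-10). The lectin gene Clec4a2 rose by 3.41 ± 0.23. Klf4 was the member that fell (-1.02), and it is also an immediate early gene. Of 16 cytokine receptors 7 rose and 2 fell. Csf2rb, the shared chain of the GM-CSF, IL-3 and IL-5 receptors, rose by 2.45 ± 0.19, while Kit and Tek were the genes that fell. Flt3, a receptor of early progenitors and dendritic cells, had 7.98, 8.48 and 6.83 in the lines, against 5.80, 6.52, 6.51 and 6.13 in sorted LT-HSC (1.52 ± 0.27), and line B6-1 lay closest to the sorted cells.

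Mast cell and basophil genes rose in 8 of 11 cases with a median of 1.83. The SD among the lines had a median of 0.45 over this list, against 0.10 for primary granule genes, 0.29 for late neutrophil genes and 0.28 for monocyte and macrophage genes. The carboxypeptidase gene Cpa3 had 8.80, 7.80 and 9.91 in lines B6-2, B6-3 and B6-1, against 4.76, 5.08, 5.24 and 4.64 in sorted LT-HSC (3.90 ± 0.69, limma adjusted p = 6.76e-05). Fcer1a, the IgE-binding receptor chain, had 7.62, 7.24 and 9.72 in the lines, against 4.81, 5.05, 4.32 and 4.58 in sorted LT-HSC (3.51 ± 0.64). Line B6-1 was highest and line B6-3 lowest for both genes. Averaged over the list, the lines lay at 6.38 to 7.50 and sorted LT-HSC at 4.77 to 5.02. The granzyme gene Gzmb followed the same order among the lines, with 8.24, 6.93 and 9.19, against 4.45, 4.69, 4.76 and 4.56 in sorted LT-HSC (3.50 ± 0.58).

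Lists for other cell types were counted as well. Over all genes 16.9% were called higher and 17.0% lower, and the counts in these lists are to be read against those shares. None of 15 B cell genes was called by limma, and 0 passed an unadjusted p under 0.05. Of these genes 3 in the lines and 2 in sorted LT-HSC had a mean above 5.86. Of 16 T and NK cell genes 3 rose and 1 fell. Gzmb, Nkg7 (2.44) and Cd28 (0.89) rose, whereas Cd3e, Cd3d, Cd3g, Cd4 and Cd8a, which define T cells, had no call and differences between -0.18 and 0.13. Of 12 dendritic cell genes 1 rose (Flt3) and 2 fell, Clec9a (-1.03) and Cd209a (-0.28). Cd209a was dim in both groups, and it was not called under 6 of 16 alternative settings. Of 11 megakaryocyte genes 9 were lower, with a median of -0.70. Vwf, which also marks platelet-biased stem cells, fell by 1.49 ± 0.12 and the secretory GTPase gene Rab27b by 1.29 ± 0.19. Erythroid genes were mixed, 2 higher and 3 lower of 11. Car2, carbonic anhydrase, fell to a mean of 6.45 in the lines, against 10.00 in sorted LT-HSC, and the water channel gene Aqp1 fell by 0.54. Tfrc, the transferrin receptor, rose by 1.62 ± 0.11. Of 15 stromal and endothelial genes 8 were called lower (4 with median centring, 5 with quantile normalization). Emcn, Tie1 (-1.47) and Kdr (-0.37) were lower, and LT-HSC themselves are known to express Emcn and Tie1. The part of other cells in these results was not tested.

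**Figure D4:**
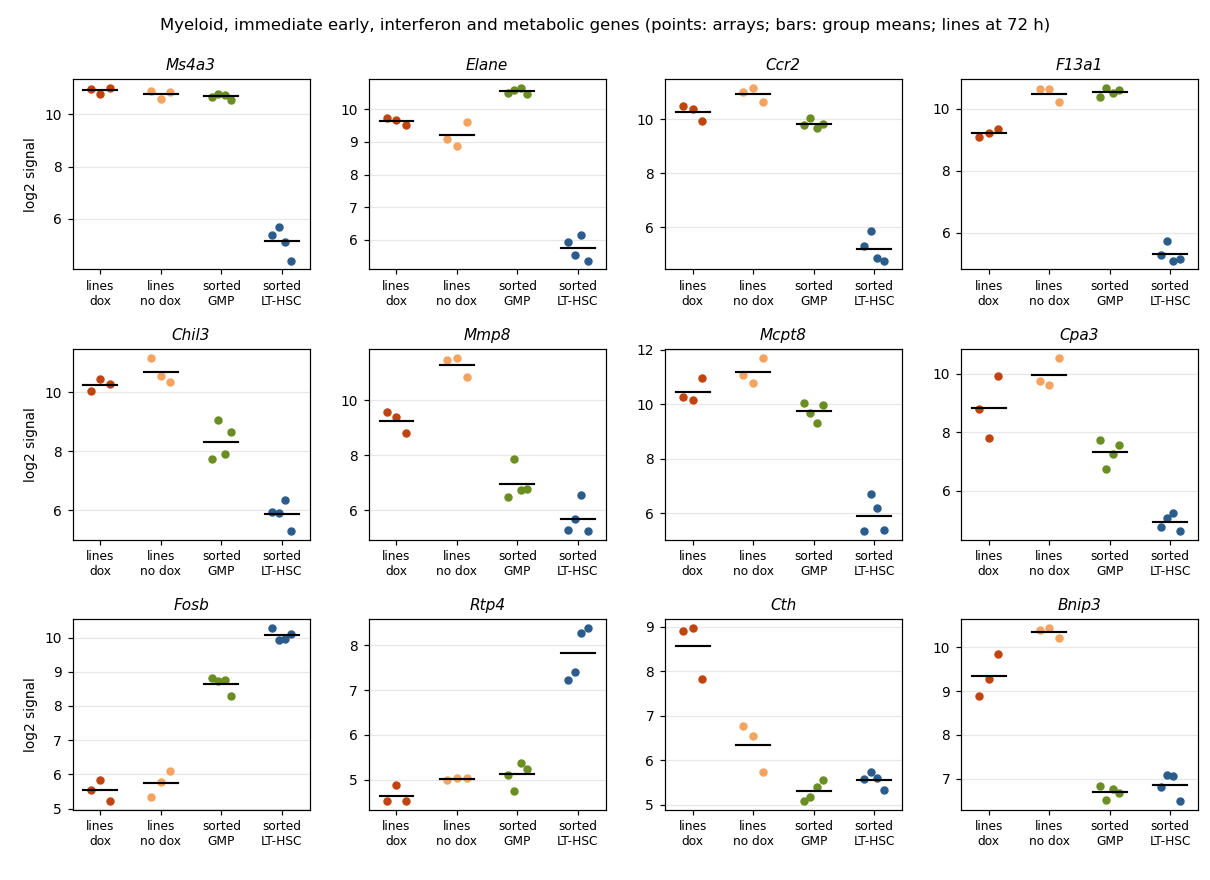
Log2 probe set signals (vertical axes) of 12 genes in LT-HSC-derived lines with dox and without dox at 72 h, sorted GMP and sorted LT-HSC, with points for arrays and bars for group means. Ms4a3 averages 10.92 in lines with dox and 10.69 in sorted GMP, against 5.15 in sorted LT-HSC, and Cth is highest in lines with dox.

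Immediate early genes, whose RNA appears within minutes of a signal or of handling, were lower in 20 of 21 cases, with a median of -1.83. Fosb, a subunit of AP-1, had 5.54, 5.84 and 5.22 in lines B6-2, B6-3 and B6-1, against 10.28, 9.92, 9.96 and 10.10 in sorted LT-HSC (-4.53 ± 0.17, limma adjusted p = 3.42e-16). The nuclear receptor gene Nr4a2 had 5.82, 5.93 and 5.91 in the lines, against 10.78, 9.88, 9.78 and 10.14 in sorted LT-HSC (-4.26 ± 0.16). Nr4a1 fell by 3.91 ± 0.12. Fosb averaged 8.65 in sorted GMP, and averages over the list's probe sets were 6.22 to 6.35 in the lines, 7.49 to 7.68 in sorted GMP and 8.29 to 8.58 in sorted LT-HSC. Both sorted populations were thus above the cultured lines, and the part of sorting in these values was not tested. Btg2, a member of the list that restrains proliferation, fell by 3.14. From other lists, the p53 target and kinase gene Plk2 fell by 3.79 and the prostaglandin synthase gene Ptgs2 by 3.30. Of 17 NF-kB and inflammatory genes 9 were lower and 3 higher. The cytokine gene Il6 had 7.07, 6.60 and 8.21 in the lines, against 3.11, 3.28, 2.72 and 2.96 in sorted LT-HSC (4.27 ± 0.61), and the chemokine gene Ccl3 rose by 3.17 ± 0.31.

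Interferon response genes were lower in 21 of 28 cases and higher in 2, with a median of -0.58. Rtp4 had 4.52, 4.88 and 4.52 in lines B6-2, B6-3 and B6-1, against 7.23, 7.41, 8.27 and 8.39 in sorted LT-HSC (-3.18 ± 0.19, limma adjusted p = 3.12e-12). Ifit1, which blocks translation of viral RNA, had 4.17, 4.17 and 4.18 in the lines, against 6.15, 5.89, 6.78 and 6.66 in sorted LT-HSC (-2.20 ± 0.18). Among sorted LT-HSC replicates 3 and 4 were the higher ones for both genes. Oasl2 fell by 2.55 ± 0.16. The members that rose, Ifitm1 (0.79) and Bst2 (0.54), are membrane proteins that restrict virus entry and release, and were named after their values were seen. Interferon-stimulated genes are known to carry the interferon-stimulated response element, searched for here as TTTC, any 2 bases and TTTC, on both strands, in the 250 bases before the gene start. It was present in 7 of 19 list members with a promoter sequence, and in 3.46% of the 27025 RefSeq genes with one. The Ifit1 promoter (RefSeq, GRCm38.p6, chr19:34640639-34640888, plus strand) is shown with its 2 matches in capitals, because Ifit1 has the largest decrease among members with a match.
Ifit1 promoter: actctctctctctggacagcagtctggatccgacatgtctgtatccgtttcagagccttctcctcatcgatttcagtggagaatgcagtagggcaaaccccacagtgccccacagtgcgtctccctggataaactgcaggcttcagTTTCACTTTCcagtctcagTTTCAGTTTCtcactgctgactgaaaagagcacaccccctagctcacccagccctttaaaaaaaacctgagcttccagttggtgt

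Antigen presentation genes showed smaller differences. Of 8 MHC class II genes 3 rose, the peptide-loading regulators H2-Ob (1.24) and H2-Oa (0.87) and the loading subunit H2-DMa (0.42), and H2-DMa was not called under 6 of 16 alternative settings, among them quantile normalization (0.29, adjusted p = 0.149). Of 8 MHC class I genes 4 rose and 2 fell. The immunoproteasome subunits Psmb8 (0.73) and Psmb9 (0.47) and the peptide transporter Tap2 (0.52) were the largest. All are known interferon targets, but they were higher in the lines, unlike most of the interferon list.

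Mitosis genes were higher in the lines in 23 of 24 cases, with a median of 0.72, and only Mki67 (0.09) was not called. Ect2, which drives cleavage of dividing cells, had 8.71, 8.61 and 8.56 in lines B6-2, B6-3 and B6-1, against 6.47, 7.44, 7.45 and 6.83 in sorted LT-HSC (1.58 ± 0.16, limma adjusted p = 1.73e-08). The kinase genes Aurka and Bub1 rose by 1.23 ± 0.12 and 1.11 ± 0.06. Averaged over the list, line arrays spanned 9.00 to 9.06, and sorted LT-HSC arrays 7.98 to 8.43. DNA replication genes rose in 12 of 31 cases and fell in 1, with a median of 0.20, led by the ribonucleotide reductase gene Rrm2 (1.39), Gins1 (1.00) of the replicative helicase and the clamp loader gene Rfc4 (0.75). With quantile normalization the median of the replication list was 0.03 and 5 of its members were called lower. Among 22 cell cycle control genes 9 rose and 5 fell. The CDK4/6 inhibitor gene Cdkn2c rose by 1.71 ± 0.19, and Cdkn1b by 0.94 ± 0.17, but the other probe set of Cdkn1b differed by -0.17.
Mitosis genes are known to carry the cell cycle genes homology region in their promoters, searched for here as TTTGAA on both strands. It was present in 10 of 20 members with a promoter sequence, and in 18.3% of the 27025 RefSeq genes with one. The Ect2 promoter (RefSeq, GRCm38.p6, chr3:27153879-27154128, minus strand), the member with the largest difference among those with a match, is shown with the match in capitals.
Ect2 promoter: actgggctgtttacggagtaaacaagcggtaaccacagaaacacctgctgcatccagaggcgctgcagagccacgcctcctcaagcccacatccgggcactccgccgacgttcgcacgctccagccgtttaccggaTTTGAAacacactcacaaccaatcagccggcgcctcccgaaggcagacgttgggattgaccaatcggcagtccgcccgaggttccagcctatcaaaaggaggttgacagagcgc

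Cholesterol synthesis genes were higher as a group. Of 20 measured, 18 were called higher in the lines, 12 of them at least 2-fold, with a median of 1.34. Msmo1, which removes methyl groups from lanosterol-derived sterols, had 9.34, 9.22 and 9.26 in lines B6-2, B6-3 and B6-1, against 6.27, 6.18, 5.47 and 5.77 in sorted LT-HSC (3.35 ± 0.14, 10.2-fold, limma adjusted p = 4.88e-15). Fdps, which makes farnesyl diphosphate, had 9.20, 9.29 and 9.28 in the lines, against 6.92, 7.00, 6.80 and 6.85 in sorted LT-HSC (2.36 ± 0.09). Hmgcs1, at the head of the mevalonate pathway, rose by 2.05 ± 0.16. The genes without a call were Mvk (0.20), mevalonate kinase, and Srebf2 (0.01), the transcription factor that controls the pathway and is itself regulated by cleavage of its protein. Msmo1 averaged 9.28 in the lines, against 6.19 in sorted GMP and 5.92 in sorted LT-HSC. SREBP factors act on these promoters together with NF-Y, which binds the CCAAT box. CCAAT, searched on both strands, was found before the start of all 16 members with a promoter sequence. Among the 27025 RefSeq genes with one the share was 37.5%. The Msmo1 promoter (RefSeq, GRCm38.p6, chr8:64733579-64733828, minus strand), that of the largest difference in the list, is shown with 3 matches in capitals.
Msmo1 promoter: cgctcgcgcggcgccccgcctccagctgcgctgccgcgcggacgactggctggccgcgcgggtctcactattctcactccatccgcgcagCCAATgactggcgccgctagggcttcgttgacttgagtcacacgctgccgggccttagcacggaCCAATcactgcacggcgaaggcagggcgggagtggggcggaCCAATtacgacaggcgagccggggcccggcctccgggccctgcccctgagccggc

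**Figure D5:**
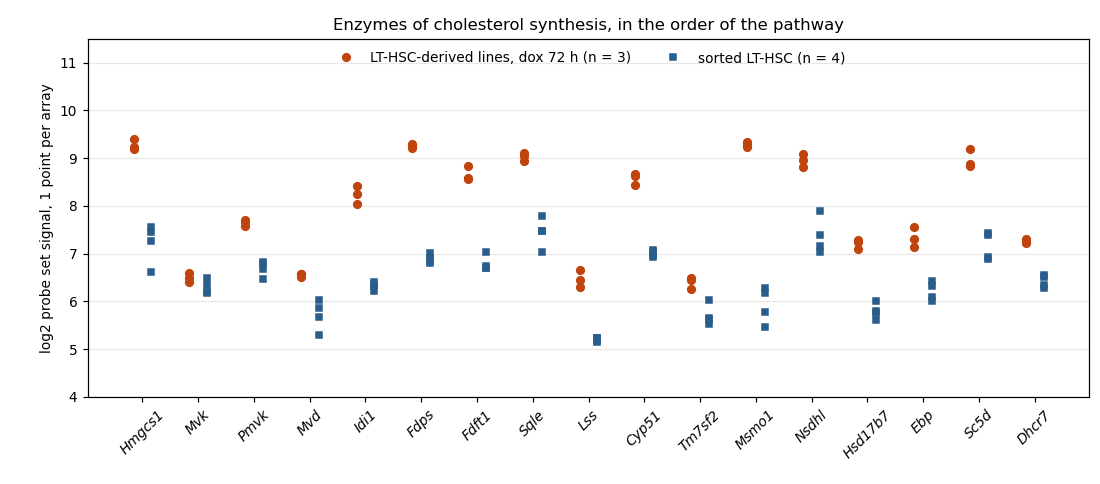
Log2 probe set signals (vertical axis) of 17 enzymes of cholesterol synthesis, ordered from Hmgcs1 to Dhcr7 along the pathway, with orange circles for arrays of the lines under dox at 72 h (n = 3) and blue squares for sorted LT-HSC (n = 4). For Msmo1 the lines lie between 9.22 and 9.34 and sorted LT-HSC between 5.47 and 6.27, whereas the groups overlap for Mvk.

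Glycolysis and hypoxia genes rose in 17 of 19 cases with a median of 0.70. Ero1a, an oxidase of the endoplasmic reticulum induced by hypoxia, had 10.78, 10.84 and 11.01 in lines B6-2, B6-3 and B6-1, against 8.31, 8.11, 8.29 and 8.40 in sorted LT-HSC (2.60 ± 0.11, limma adjusted p = 2.74e-15). Bnip3, a mitophagy receptor, had 8.89, 9.28 and 9.86 in the lines, against 6.82, 7.09, 7.05 and 6.49 in sorted LT-HSC (2.48 ± 0.28), and its other probe set differed by 1.82. The oxygen sensor gene Egln3 rose by 1.78 ± 0.23. Line B6-1 was highest for all 3 genes. Respiratory chain genes also rose, 24 of 27 with a median of 0.46, led by Uqcrq (1.30), Cox5a (1.02) and Cox7a2 (0.82), subunits of complexes III and IV. With quantile normalization the median of the respiratory list was 0.30 and 1 member was called lower. The core of the hypoxia response element, ACGTG on either strand, was present in 14 of 19 glycolysis and hypoxia members. Among the 27025 RefSeq genes with a promoter sequence the share was 18.5%. The Ero1a promoter (RefSeq, GRCm38.p6, chr14:45318573-45318822, minus strand), that of the largest difference in this list, is shown with the match in capitals.
Ero1a promoter: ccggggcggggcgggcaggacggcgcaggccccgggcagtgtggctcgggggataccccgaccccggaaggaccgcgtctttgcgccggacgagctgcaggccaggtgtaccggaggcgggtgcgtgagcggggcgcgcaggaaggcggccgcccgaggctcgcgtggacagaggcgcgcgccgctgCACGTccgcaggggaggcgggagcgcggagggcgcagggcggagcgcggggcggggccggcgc

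Genes of serine and folate metabolism and other targets of ATF4, the transcription factor of the amino acid response, rose in 21 of 26 cases and fell in 1, with a median of 0.71. Cth, which makes cysteine from cystathionine, had 8.91, 8.97 and 7.83 in lines B6-2, B6-3 and B6-1, against 5.57, 5.75, 5.61 and 5.34 in sorted LT-HSC (3.00 ± 0.29, limma adjusted p = 1.07e-08). Slc7a11, the cystine importer, had 7.63, 7.41 and 7.43 in the lines, against 4.72, 4.44, 4.26 and 4.82 in sorted LT-HSC (2.93 ± 0.15). Mthfd2, a mitochondrial folate enzyme, rose by 2.67 ± 0.13. The gene that fell, named after its value was seen, was the amino acid transporter gene Slc38a2 (-0.59). ATF4 and its partners bind the C/EBP-ATF response element, searched for here as TGATGNAA on both strands. It was found in 3 of 22 members with a promoter sequence and in 3.91% of the 27025 RefSeq genes with one. The Slc7a11 promoter (RefSeq, GRCm38.p6, chr3:50443614-50443863, minus strand), of the largest difference among members with a match, holds 2 matches in opposite orientation, in capitals.
Slc7a11 promoter: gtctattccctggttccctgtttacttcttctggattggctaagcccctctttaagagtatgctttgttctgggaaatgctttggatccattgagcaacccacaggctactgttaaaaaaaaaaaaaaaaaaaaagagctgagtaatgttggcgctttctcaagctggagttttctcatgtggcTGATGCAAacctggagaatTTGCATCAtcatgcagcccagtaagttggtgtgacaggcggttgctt

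Growth-related lists had medians nearer 0. Of 27 nucleolar and MYC target genes 6 rose and 2 fell with a median of -0.01, and the largest increases were the ribosome assembly genes Nhp2 (1.03), Wdr12 (0.86) and Pes1 (0.72). With quantile normalization 7 of the list were called lower. Of 16 ribosomal protein genes 7 rose and 1 fell, with differences between -0.17 and 0.29. Rpl19 (0.29), Rpsa (0.28) and Rpl13 (0.28) were the largest, each has near-identical copies that could share signal, and Rpsa was not called with quantile normalization (0.14, adjusted p = 0.113).

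EMT genes did not move one way: of 22 measured, 5 rose and 7 fell. Lgals1, the lectin galectin 1, had 11.64, 11.75 and 11.67 in lines B6-2, B6-3 and B6-1, against 8.02, 9.00, 8.60 and 8.07 in sorted LT-HSC (3.26 ± 0.15, limma adjusted p = 2.13e-14). The calcium-binding protein gene S100a4 rose by 1.50 ± 0.34. The matrix protein gene Sparc fell by 2.06 ± 0.43, with 5.45, 5.82 and 5.79 in the lines, against 8.68, 6.33, 7.86 and 8.13 in sorted LT-HSC. Tcf4, an E protein linked to EMT, averaged 8.16 ± 0.24 in the lines, against 8.19 ± 0.12 in sorted LT-HSC, a difference of -0.04 ± 0.11 (adjusted p = 0.843) whose sign changed under some settings. Of 15 epithelial genes 3 rose and 6 fell. E-cadherin (Cdh1) rose by 1.12 ± 0.17, whereas the keratin gene Krt18 (-2.74) and the junction protein gene F11r (-1.76) fell. Of 17 migration and invasion genes 9 rose and 3 fell. Beside Ccr2, the chemokine receptor gene Ccr1 rose by 2.15 ± 0.33, and S1pr1, the receptor that draws cells into blood, fell by 2.52 ± 0.16.

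Lists for survival were mixed. Of 16 p53 targets 5 rose and 5 fell: the membrane protein gene Perp rose by 1.57 and the BH3-only gene Pmaip1 by 0.97, while Plk2 was lower. Of 12 survival and death genes 5 rose and 2 fell. The anti-apoptotic gene Mcl1 averaged 9.42 ± 0.04 in the lines, against 10.38 ± 0.16 in sorted LT-HSC (-0.96 ± 0.11 SE), and the pro-apoptotic effector gene Bak1 rose by 0.64 ± 0.10. As a check of the sex of the animals, Xist averaged 10.93 in the lines and 11.13 in sorted LT-HSC. The difference of -0.20 was not called under 4 of 16 alternative settings. The Y-linked genes Kdm5d, Uty and Eif2s3y had no call.

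The same lines without dox at 72 h gave reference levels that separate what moved with dox, and this comparison uses the same 3 dox arrays as the one with sorted LT-HSC. The drug and the fusion that it controls differ together in it, so their parts cannot be told apart. Dox minus no dox gave 1425 calls (7.15%), 683 higher (3.43%) and 742 lower (3.72%), and lines without dox minus sorted LT-HSC gave 6973 (35.0%). The count of 1425 was smaller without line B6-2 with dox (859), line B6-1 with dox (901) or line B6-2 without dox (903). MLL fusion targets were higher with dox in 10 of 17 cases and lower in 2, and Hoxa genes in 4 of 10. Mecom was 2.64 ± 0.24 higher with dox than without (limma adjusted p = 3.73e-07), Meis1 1.61, Eya1 1.65, Gimap6 1.41, Erg 0.86, Hoxa9 0.85, Kit 0.71 and Zeb1 0.61. Hprt differed most among the fixed genes, by 3.53. Of the 25 HSC genes 2 were called higher with dox, 1 lower and 22 neither, against 7.15% of all genes called. At an unadjusted p under 0.05, 4 HSC genes were higher with dox and 1 lower. Hlf, Trpc6 and Tek differed by -0.06, 0.18 and 0.01, against -3.88, -3.80 and -3.52 between lines with dox and sorted LT-HSC. Monocyte and macrophage genes were lower with dox in 16 of 23 cases, with a median of -1.24, and MHC class II genes in 6 of 8. Even so, F13a1 at 9.23 with dox and 10.50 without was above 5.31 in sorted LT-HSC in both conditions. Among metabolic lists 10 of 26 serine, folate and ATF4 genes were higher with dox (Cth by 2.22), 8 of 19 glycolysis and hypoxia genes were lower (Bnip3 by -1.01), and none of the 27 respiratory chain or 24 mitosis genes was called by limma. At an unadjusted p under 0.05, 3 respiratory chain genes were higher with dox and 1 mitosis gene lower.

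Sorted GMP gave a second reference. Lines with dox minus sorted GMP gave 3572 calls (17.9%), 8.78% of genes higher and 9.14% lower, and 271 genes (1.36%) were at least 2-fold higher and 113 (0.567%) lower. Among the 25 HSC genes 7 were higher than in GMP and 2 lower, with a median of 0.09, against -1.61 in relation to sorted LT-HSC. Ms4a3, Ctsg, Atp8b4 and Clec12a, among the largest increases over LT-HSC, differed from GMP by 0.23, -0.18, -0.25 and -0.14 and were not called. Scin, Hpgd, Ccl6 and Wfdc17 were higher than in GMP too, by 3.78, 4.18, 2.98 and 2.95. Cholesterol synthesis genes were higher than in GMP in 18 of 20 cases with a median of 1.22, and serine, folate and ATF4 genes in 18 of 26. Late neutrophil genes were higher than in GMP in 11 of 18 cases, while primary granule genes were lower in 6 of 14, Elane by -0.92. Mitosis genes, higher than in LT-HSC in 23 of 24 cases, were lower than in GMP in 6 cases and called higher by limma in 0 (1 at an unadjusted p under 0.05). Hoxa genes were higher than in GMP in 7 of 10 cases.

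The change from sorted cell to line was also set against that of the GMP origin, lines with dox at 48 h minus sorted GMP. The 2 changes share no arrays, but the times differ, so origin and time cannot be told apart. The difference of the changes was called for 3819 genes (19.2%), positive for 10.3% and negative for 8.81%. It was positive for 13 of 14 primary granule genes (median 3.36), 24 of 24 mitosis genes (0.80) and 22 of 27 respiratory chain genes (0.45), and negative for 19 of 25 HSC genes (-1.41). The sorted cells themselves differed for these lists. Primary granule averages were 6.78 to 7.08 in sorted LT-HSC arrays and 10.20 to 10.31 in sorted GMP arrays. For mitosis genes they were 7.98 to 8.43 and 9.15 to 9.25, and for respiratory chain genes 9.22 to 9.36 and 9.83 to 9.92. For HSC genes they were 7.63 to 7.78 and 5.70 to 5.76. The part of these starting levels was not tested. For cholesterol synthesis it was positive in 3 and negative in 3 of 20 genes (median 0.01), and for serine, folate and ATF4 genes positive in 3 and negative in 1 of 26 (median 0.02).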

How the data were processed

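RNA was measured on 26 Affymetrix arrays. Per the labels' protocols, 19 ng of RNA was amplified to cDNA and labelled with biotin. The authors deposited log2 signals per probe set, processed with limma and R 3.1.1 per the submitters' processing notes, which here name no background correction or normalization. Of 34760 probe sets, 21640 carried 1 gene symbol, 1321 several and 11799 none in the platform annotation. RefSeq (GRCm38.p6) matched 21553 and served for names. Each of 19937 genes was represented by its probe set of highest mean, and 954 genes had more than 1. No filter was applied.

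With limma 3.58.1 (R 4.3.3; lmFit, contrasts.fit, eBayes), a mean for each of the 8 labelled groups was fitted to the 26 arrays and tested 2-sided, with Benjamini-Hochberg adjustment over all genes and a threshold of 0.05. On simulated data (19937 genes) this recovered 77%, 98% and 100% of differences of 0.5, 1 and 2 log2 units, and 4.35% of calls were not changed genes. The simulation changed only a small share of genes and drew independent noise for each array. In the study 33.9% of genes were called and the same lines recur in several groups, so these rates need not hold here. No 2 arrays held identical values, and the number of arrays limits the precision.

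The comparison, the 39 gene lists (647 genes measured), the motifs and the alternatives were chosen with earlier results of these data known. Named genes were the 12 largest increases and 12 largest decreases (called, arrays not overlapping, the higher mean above the median of all probe sets, and without predicted genes, microRNAs, olfactory, vomeronasal, immunoglobulin and T cell receptor genes), the 3 largest called members of each list, 4 genes each way for the difference between origins, and Hoxa9, Meis1, Mecom, Erg, Zeb1, Tcf4, Kmt2a, Mllt3 and Hprt. Other list members were named after their values were seen. Motifs were searched separately, so matches of different motifs can overlap. The genes of a list are not independent, and lists share members. Alternatives were other probe set summaries, a filter on dim genes, quantile normalization, median centring, array weights, other priors, blocks and leaving out each array.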

Additional observations from a re-analysis of the deposited data

Results flagged for a closer look

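Among the 4 sorted LT-HSC arrays, 1 stood apart from the rest for 6 named genes, by the gap to its nearest neighbour in relation to the group's range. Chance gives such a gap in about 1 in 20 groups of values, and 130 genes were named. Ctsg had 6.52 in replicate 1, against 5.51 to 5.58 in the others, and Tek had 7.09 in the same replicate, against 7.76 to 7.88. Rfc4 had 7.64 in replicate 2, against 7.22 to 7.28, and Kmt2a 9.94 in that replicate, against 10.09 to 10.10. Hprt had 9.84 in replicate 3, against 9.25 to 9.29. Hlf had 9.32 in replicate 4, against 9.72 to 9.77.

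The change from sorted cell to line with dox differed between the LT-HSC origin (72 h) and the GMP origin (48 h) by the test of the difference for 3819 genes, many of the named genes among them. The 8 given here are the 4 largest positive and the 4 largest negative differences. They were taken for their size, so they describe no gene group. The highest of the 4 group means had to lie above the median of all probe sets. The gene types left out of the largest changes were left out here too, but arrays were allowed to overlap. The change in the GMP origin was not tested on its own. Prg2, the granule major basic protein, changed by 3.40 in the LT-HSC origin and -3.17 in the GMP origin, a difference of 6.57 ± 1.09 (SE, limma adjusted p = 7.28e-05). Cpa3 changed by 3.90 and -2.44, a difference of 6.34. Mcpt8 changed by 4.54 and -1.70, a difference of 6.25. Rnase12 changed by 3.98 and -2.21, a difference of 6.20. In GMP-derived lines with dox, Cpa3 averaged 4.88, against 8.83 in LT-HSC-derived lines with dox.

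For the 4 largest negative differences, the change in the LT-HSC origin is again given before that in the GMP origin. Bex1 changed by -6.42 and -0.89, a difference of -5.53. Mmrn1 changed by -4.65 and 0.01, a difference of -4.65. Myct1 changed by -4.68 and -0.40, a difference of -4.28. Pf4 changed by -4.74 and -0.69, a difference of -4.05. All 4 genes were already dim in sorted GMP, with means from 3.48 (Mmrn1) to 5.39 (Pf4), below the median of 5.86. In sorted LT-HSC they averaged from 8.33 (Mmrn1) to 10.5 (Pf4), and in lines with dox of both origins they were below the median. The part of these starting levels in the differences was not tested.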

How the results depend on the processing

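Calls between lines with dox and sorted LT-HSC numbered 5866 to 6879 over the alternative settings and 5588 to 6733 when 1 array was left out, against 6768 as reported. With a replicate block there were 6674, of which 3366 were higher and 3308 lower. Between lines with dox and sorted LT-HSC the replicate numbers did not pair the samples. Deviations of same-numbered arrays correlated at -0.13, 0.08 and 0.02, and not every array correlated best with its own number. The block moved no count of calls by over 1.5 times. With the line as a random block 6767 genes were called. For dox against no dox the same lines stand on both sides, and the fit as reported was unpaired. There 1575 genes were called with the replicate block and 1699 with the line as a random block, against 1425 as reported. Of 130 named genes 7 changed their call or direction in some of 16 settings (Eya1, Rpsa, Cd209a, H2-DMa, Xist, Hoxa9 and Tcf4). Tcf4, not called as reported, reversed sign to 0.026 with median centring, and ranged from -0.18 to 0.040 when 1 array was left out (positive without sorted LT-HSC replicate 4, line B6-2 or line B6-1). The comparison of dox with no dox was less stable than the others: 1425 calls became 2241 with array weights (1270 lower) and 647 with only the compared groups (258 higher, 389 lower), and 859 to 1329 when 1 array was left out (365 to 638 higher, 440 to 837 lower). The cause was not tested. Without detection calls, differences against dim levels may be understated.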
